A study of Mus musculus with 16 samples.

Results

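The genes described here are 10 genes of the circadian clock and its outputs: the activators Clock and Npas2, the repressors Per1, Per2 and Per3, the nuclear receptors Nr1d1 and Nr1d2, and the output genes Dbp, Tef and Usp2. They were chosen by symbol, and they are 10 of the 53647 gene identifiers in the deposited table of mouse lung RNA-seq. All 10 were among the 17003 genes that reached 1 TPM (a transcript level scaled for transcript length and library size) in at least 4 of the 16 libraries.

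Whole mouse lung RNA was sequenced in 4 groups of 4 libraries, and each group had 2 libraries in batch 2 and 2 in batch 1. The groups are bleomycin with Ad-ATP12A, bleomycin with Ad-GFP, bleomycin alone, and control, called Ad-ATP12A, Ad-GFP, bleomycin and control lungs from here on. Bleomycin, a chemotherapy drug, causes lung damage followed by scarring, Ad-ATP12A and Ad-GFP are names of the form used for adenoviral vectors that carry the named gene, and ATP12A is a proton pump subunit. The labels used here give no strain, sex, age, dose, day, or time of day of collection, no treatment of the control lungs, and no statement that the libraries of a group came from separate animals. In 4 of the 8 pairs of libraries of the same group and batch, 1 pair in each group, Xist, expressed from the inactive X chromosome of female cells, was at 10 TPM or more in 1 library alone and Ddx3y, a gene of the Y chromosome, in the other alone, so those pairs came from separate animals. For the other 4 pairs no such value is at hand, and the spread that the p-values measure may there be technical.

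In the mammalian clock, CLOCK or its relative NPAS2 pairs with BMAL1, the product of Arntl, and the pair switches on genes that carry E-box sequences, among them the Per genes, Nr1d1, Nr1d2, Dbp, Tef and Usp2. PER proteins then repress the pair, and the NR1D1 and NR1D2 receptors repress Arntl, Clock and Npas2, so that Arntl and Npas2 peak at about the opposite time of day from Nr1d1 and Dbp. In lung, this loop runs in airway, alveolar and stromal cells, and glucocorticoid hormone, feeding and light help to set its phase.

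Promoter windows of 300 bases, running from 250 bases before to 50 bases after a transcript's start, were taken from RefSeq on build GRCm38.p6, and 9 of the 10 genes had at least 1 window, 13 windows in all. Per2 had no entry. The 6 windows below are shown because Clock, Per1, Per3 and Usp2 moved in opposite directions between the batches, and Dbp and Tef are the output genes that reached the highest levels. Capitals mark the E-box CACGTG and the D-box TTANGTAA, the element bound by DBP and TEF. Each window is written 5′ to 3′ on the strand of its gene.
Per1: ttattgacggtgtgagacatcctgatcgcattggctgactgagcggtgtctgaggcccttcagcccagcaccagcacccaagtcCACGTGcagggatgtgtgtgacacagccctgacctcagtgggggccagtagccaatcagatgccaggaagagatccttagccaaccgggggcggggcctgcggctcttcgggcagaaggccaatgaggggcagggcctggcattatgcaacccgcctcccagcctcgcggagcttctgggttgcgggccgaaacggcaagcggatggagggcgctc
Tef: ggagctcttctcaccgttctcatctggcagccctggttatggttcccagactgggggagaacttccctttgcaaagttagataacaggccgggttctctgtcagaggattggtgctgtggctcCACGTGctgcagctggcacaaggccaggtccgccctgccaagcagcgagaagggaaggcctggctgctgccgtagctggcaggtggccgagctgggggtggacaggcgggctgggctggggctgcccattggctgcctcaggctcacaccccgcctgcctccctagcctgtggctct
Per3: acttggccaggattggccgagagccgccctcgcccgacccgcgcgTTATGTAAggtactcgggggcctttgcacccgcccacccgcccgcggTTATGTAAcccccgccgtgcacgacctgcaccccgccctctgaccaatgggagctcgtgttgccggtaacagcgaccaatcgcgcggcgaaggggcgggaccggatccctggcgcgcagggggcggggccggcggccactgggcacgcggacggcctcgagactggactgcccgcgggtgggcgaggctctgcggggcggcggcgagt
Dbp: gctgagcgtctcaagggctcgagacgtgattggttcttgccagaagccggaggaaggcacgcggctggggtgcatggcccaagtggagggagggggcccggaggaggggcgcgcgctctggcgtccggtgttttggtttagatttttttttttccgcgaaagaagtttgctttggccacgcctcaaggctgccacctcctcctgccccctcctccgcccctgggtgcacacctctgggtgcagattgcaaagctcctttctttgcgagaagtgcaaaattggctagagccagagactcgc
Clock: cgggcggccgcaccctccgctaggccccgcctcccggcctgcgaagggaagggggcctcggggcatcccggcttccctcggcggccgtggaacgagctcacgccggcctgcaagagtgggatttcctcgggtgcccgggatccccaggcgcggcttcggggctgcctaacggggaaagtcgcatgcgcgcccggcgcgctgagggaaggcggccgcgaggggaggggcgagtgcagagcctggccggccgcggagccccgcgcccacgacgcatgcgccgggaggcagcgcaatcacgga
Usp2: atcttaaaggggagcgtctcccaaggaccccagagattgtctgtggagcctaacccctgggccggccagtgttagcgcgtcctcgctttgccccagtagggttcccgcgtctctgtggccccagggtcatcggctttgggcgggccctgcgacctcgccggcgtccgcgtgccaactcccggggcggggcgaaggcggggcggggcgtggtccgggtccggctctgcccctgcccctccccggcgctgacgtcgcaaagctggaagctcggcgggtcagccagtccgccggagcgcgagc
The windows lie at chr11:69098699-69098998 on the plus strand for Per1, chr15:81802423-81802722 on the plus strand for Tef, chr4:151044616-151044915 on the minus strand for Per3, chr7:45704997-45705296 on the plus strand for Dbp, chr5:76304743-76305042 on the minus strand for Clock, and chr9:44084670-44084969 on the plus strand for Usp2. The E-box was found in 3 of the 13 windows, 1 of Per1 and both of Tef, and in 7.15% of the 32851 promoter windows of all genes. The D-box was found in the Per3 window, in 2 places, and in 2.32% of all windows. Searched on both strands, the ROR element TAGGTCA (2.61% of all windows) and the cyclic AMP element TGACGTCA (1.79%) were in none of the 13 windows, and the glucocorticoid half-site TGTTCT (19% of all windows) was in 1, the window of Tef that is not shown. A match here is a run of letters and not a measured binding site, and other elements may lie outside these windows.

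The libraries were alike in breadth, with 15537 to 16336 genes at 1 TPM or more, and the deposited values keep no read depth, so the depth behind each value is unknown. The lung label held: the summed level of 5 alveolar type 2 cell markers was at least 6719 TPM in every library, and that of 4 liver markers was at most 1.35 TPM. Atp12a, the mouse gene of the name that the vector bears, stood at 5.13, 2.96, 29.0 and 25.7 TPM in the 4 Ad-ATP12A lungs. It was at no more than 0.20 TPM in any other library. Scgb1a1, the secretory protein of club cells in the airway, was below 1000 TPM in 3 libraries, 1 of Ad-GFP in batch 1, 1 of bleomycin in batch 2 and 1 of control in batch 2, and at 24870 TPM or more in the other 13. Xist was at 10 TPM or more in 6 libraries, of which 3 were Ad-ATP12A, 1 Ad-GFP, 1 bleomycin and 1 control.

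The clearest feature of these genes was that 5 of the 10 went in opposite directions in the 2 batches, beside 2.22% of all genes. Each batch held 2 control libraries. In batch 2 the lungs given bleomycin, with or without a vector, had higher Clock and lower Per1, Per2, Per3 and Usp2 than both controls of that batch. In batch 1 they had lower Clock and higher Per1, Per2, Per3 and Usp2 than both controls. Averaged over the batches, these 5 genes therefore showed no difference that passed the test, and Nr1d1 was the 1 gene of the 10 that did. The values of the control libraries differed more between the batches than those of any exposed group for Per1, Per2, Per3, Dbp, Tef, Usp2, Npas2 and Nr1d2.

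**Figure D1:**
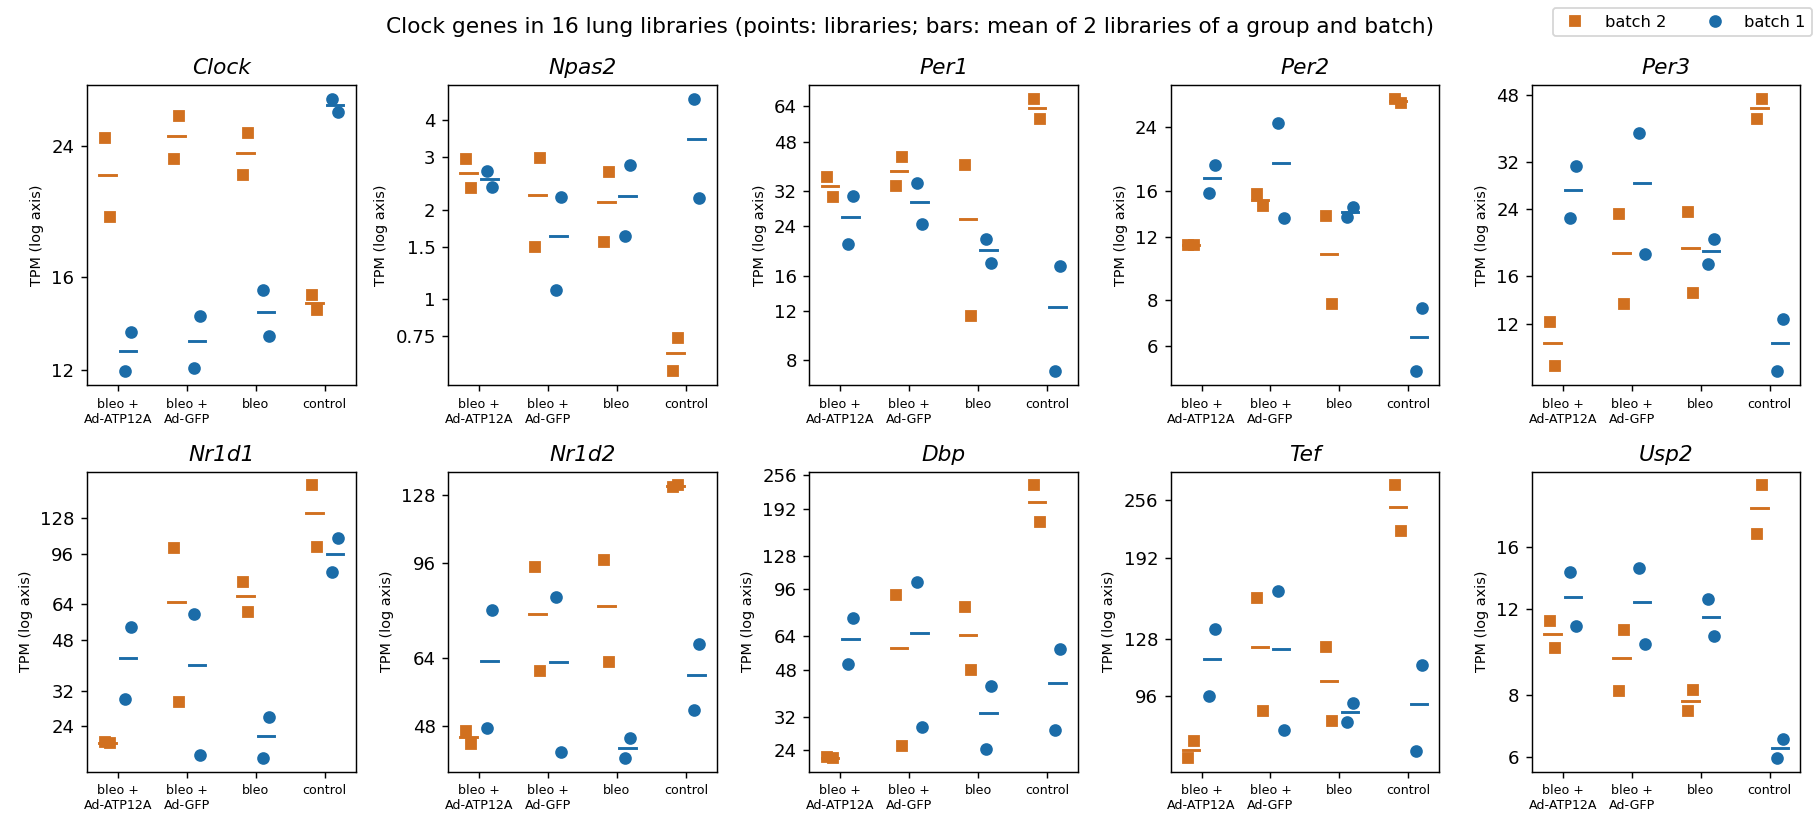
Level of each of the 10 genes in TPM on a log axis, by group, with batch 2 as orange squares and batch 1 as blue circles; each point is 1 library and each short bar the mean of the 2 libraries of a group and batch. The 6 exposed lungs of batch 2 lie above their controls in Clock, which are at 15.1 and 14.5 TPM, and the 6 of batch 1 below theirs, which are at 27.8 and 26.7 TPM.

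Clock encodes the DNA-binding activator that pairs with BMAL1. In batch 2 Clock stood at 24.6 and 19.3 TPM in Ad-ATP12A lungs, 23.1 and 26.4 TPM in Ad-GFP lungs, 22.0 and 25.0 TPM in bleomycin lungs, and 15.1 and 14.5 TPM in control lungs. In batch 1 it stood at 11.96 and 13.5 TPM in Ad-ATP12A lungs, 12.1 and 14.2 TPM in Ad-GFP lungs, 15.4 and 13.3 TPM in bleomycin lungs, and 27.8 and 26.7 TPM in control lungs. The exposed libraries were all above both controls in batch 2 and all below both in batch 1, with no overlap in either. As mean differences from control inside a batch, on the log2(TPM + 1) scale, Clock was 0.53 in Ad-ATP12A, 0.70 in Ad-GFP and 0.63 in bleomycin lungs in batch 2, and −1.04, −1.001 and −0.88 in the same groups in batch 1.

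Npas2, the relative of Clock that can take its place, was the least abundant of the 10. Its batch 2 levels were 2.95 and 2.37 TPM in Ad-ATP12A lungs, 1.50 and 2.98 TPM in Ad-GFP lungs, 1.56 and 2.68 TPM in bleomycin lungs, and 0.57 and 0.74 TPM in control lungs. Its batch 1 levels were 2.70 and 2.38 TPM in Ad-ATP12A lungs, 1.07 and 2.20 TPM in Ad-GFP lungs, 1.63 and 2.83 TPM in bleomycin lungs, and 4.73 and 2.18 TPM in control lungs. The 6 exposed libraries of batch 2 were above both controls, while in batch 1 the groups overlapped, since control library 2 was at 2.18 TPM. At these levels the added pseudocount of 1 TPM shrinks each log2 difference.

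Per1 encodes a repressor of the CLOCK and BMAL1 pair that is also an early responder to hormone and cyclic AMP signals. Batch 2 lungs had Per1 at 35.9 and 30.5 TPM in Ad-ATP12A lungs, 33.3 and 42.4 TPM in Ad-GFP lungs, 39.6 and 11.46 TPM in bleomycin lungs, and 68.2 and 57.7 TPM in control lungs. Batch 1 lungs had it at 20.8 and 30.8 TPM in Ad-ATP12A lungs, 34.2 and 24.4 TPM in Ad-GFP lungs, 21.6 and 17.8 TPM in bleomycin lungs, and 7.31 and 17.4 TPM in control lungs. All 6 exposed libraries were below both controls in batch 2, and bleomycin library 2 was the lowest of them. In batch 1 all 6 exceeded both controls, by a small gap (17.8 TPM in bleomycin library 2, against 17.4 TPM in control library 2).

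Per2 encodes the repressor most needed for a stable rhythm in mice. For Per2, batch 2 gave 11.4 and 11.3 TPM in Ad-ATP12A lungs, 15.8 and 14.6 TPM in Ad-GFP lungs, 13.7 and 7.82 TPM in bleomycin lungs, and 28.8 and 28.0 TPM in control lungs. For batch 1 the levels were 15.9 and 18.9 TPM in Ad-ATP12A lungs, 24.7 and 13.5 TPM in Ad-GFP lungs, 13.6 and 14.4 TPM in bleomycin lungs, and 5.10 and 7.61 TPM in control lungs. The batch 2 controls were the highest of the 16 libraries and the batch 1 controls the lowest, so that every exposed library of either batch lay between the pairs of controls.

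Per3, the third period gene, is a clock output with a lesser part in the loop. Its levels in batch 2 were 12.1 and 9.29 TPM in Ad-ATP12A lungs, 23.3 and 13.5 TPM in Ad-GFP lungs, 23.7 and 14.4 TPM in bleomycin lungs, and 41.6 and 47.0 TPM in control lungs. Its levels in batch 1 were 22.8 and 31.2 TPM in Ad-ATP12A lungs, 38.1 and 18.3 TPM in Ad-GFP lungs, 17.3 and 20.04 TPM in bleomycin lungs, and 9.00 and 12.4 TPM in control lungs. The exposed lungs were below both controls in batch 2 and above both in batch 1. Annotated on GRCm38, Per3 lies within the span of Camta1 on the same strand, so that reads from unspliced Camta1 transcripts could be counted with it.

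Nr1d1 (REV-ERB alpha) is a heme-binding nuclear receptor that represses Arntl. Nr1d1 in batch 2 was at 21.1 and 20.9 TPM in Ad-ATP12A lungs, 101 and 29.1 TPM in Ad-GFP lungs, 76.5 and 60.1 TPM in bleomycin lungs, and 166 and 101 TPM in control lungs. Nr1d1 in batch 1 was at 30.0 and 53.2 TPM in Ad-ATP12A lungs, 59.3 and 19.1 TPM in Ad-GFP lungs, 18.6 and 25.9 TPM in bleomycin lungs, and 83.0 and 109 TPM in control lungs. It was the only gene of the 10 that was below both controls of the same batch in all 6 exposed libraries in both batches, although Ad-GFP library 1 of batch 2, at 100.74 TPM, lay just under the nearer control, at 100.88 TPM. Nr1d1 and Thra, the thyroid hormone receptor gene on the opposite strand, share 1075 bases at their ends on GRCm38, and whether counting used strand is not given in the sources used here.

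Nr1d2 (REV-ERB beta) is the partner receptor of Nr1d1. Nr1d2 levels in batch 2 were 47.1 and 44.4 TPM in Ad-ATP12A lungs, 94.1 and 60.5 TPM in Ad-GFP lungs, 97.0 and 62.8 TPM in bleomycin lungs, and 132 and 133 TPM in control lungs. Nr1d2 levels in batch 1 were 47.6 and 78.6 TPM in Ad-ATP12A lungs, 82.9 and 43.0 TPM in Ad-GFP lungs, 41.9 and 45.5 TPM in bleomycin lungs, and 51.4 and 68.0 TPM in control lungs. In batch 2 all 6 exposed lungs were below both controls, and in batch 1 exposed and control lungs overlapped.

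Dbp encodes a PAR bZIP factor that carries the daily rhythm to liver, kidney and lung target genes, and between its lowest and highest library it had the widest ratio of the 10. Batch 2 levels of Dbp were 22.6 and 22.4 TPM in Ad-ATP12A lungs, 91.3 and 24.8 TPM in Ad-GFP lungs, 82.1 and 47.9 TPM in bleomycin lungs, and 235 and 171 TPM in control lungs. Batch 1 levels of Dbp were 50.3 and 75.0 TPM in Ad-ATP12A lungs, 102 and 29.5 TPM in Ad-GFP lungs, 24.3 and 41.8 TPM in bleomycin lungs, and 28.5 and 57.4 TPM in control lungs. Exposed and control lungs did not overlap in batch 2 and did in batch 1. Within the Ad-GFP group, library 1 exceeded library 2 by 1.84 on the log2(TPM + 1) scale in batch 2 and by 1.76 in batch 1, while the 2 Ad-ATP12A libraries of batch 2 differed by 0.01. Dbp shares 737 bases with Sphk2 on the opposite strand.

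Tef, a second PAR bZIP factor, reached the highest level of the 10. Tef stood in batch 2 at 70.3 and 76.5 TPM in Ad-ATP12A lungs, 157 and 89.2 TPM in Ad-GFP lungs, 123 and 84.8 TPM in bleomycin lungs, and 276 and 219 TPM in control lungs. Tef stood in batch 1 at 96.1 and 135 TPM in Ad-ATP12A lungs, 162 and 80.8 TPM in Ad-GFP lungs, 84.4 and 92.6 TPM in bleomycin lungs, and 72.8 and 112 TPM in control lungs. Its controls of batch 2 were the highest 2 of the 16 libraries, and the exposed libraries of that batch did not reach them.

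Usp2 encodes a deubiquitinating enzyme with a daily rhythm in many tissues. In batch 2, Usp2 was at 11.3 and 9.98 TPM in Ad-ATP12A lungs, 8.15 and 10.9 TPM in Ad-GFP lungs, 7.42 and 8.19 TPM in bleomycin lungs, and 17.0 and 21.4 TPM in control lungs. In batch 1, Usp2 was at 14.3 and 11.1 TPM in Ad-ATP12A lungs, 14.5 and 10.2 TPM in Ad-GFP lungs, 12.5 and 10.6 TPM in bleomycin lungs, and 5.96 and 6.53 TPM in control lungs. The 6 exposed lungs were below both controls in batch 2 and above both in batch 1. The annotated span of Usp2 is covered on the opposite strand by the gene model Gm49380.

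Counting separation in this way, the 6 exposed libraries of batch 2 did not overlap the 2 controls for 10 of the 10 genes, 2 above (Clock and Npas2) and 8 below; 30.1% of the 17003 genes tested were apart in batch 2, 19.7% above and 10.5% below. In batch 1 they did not overlap for 6 of the 10, 4 above (Per1, Per2, Per3 and Usp2) and 2 below (Clock and Nr1d1). That share is near the 47.6% of all genes apart in batch 1, of which 24.5% were above and 23.1% below. Apart in both batches but in opposite directions were 5 of the 10, Clock, Per1, Per2, Per3 and Usp2, beside 2.22% of all genes. Apart in both batches in the same direction was 1 of the 10, Nr1d1, beside 13.9% of all genes. Since the 10 were chosen with earlier results of these data known, these counts, and those of the tests that follow, describe the 10 genes and are not independent support for a pattern. The count of 5 stayed at 5 with quantile normalization (2.87% of all genes), with median-ratio scaling (2.85%), and without the 3 libraries low in Scgb1a1, where the share of all genes was 9.65%. Without control library 2 of batch 1 it was 7, beside 3.63% of all genes. The count of 10 in batch 2 stayed at 10 without the 3 libraries low in Scgb1a1, but 58.3% of all genes were then apart. The share apart in batch 2 was 56% without control library 1 of batch 2, which is low in Scgb1a1. It was 47.6% without control library 2 of batch 2, and the count was 10 in both settings.

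**Figure D2:**
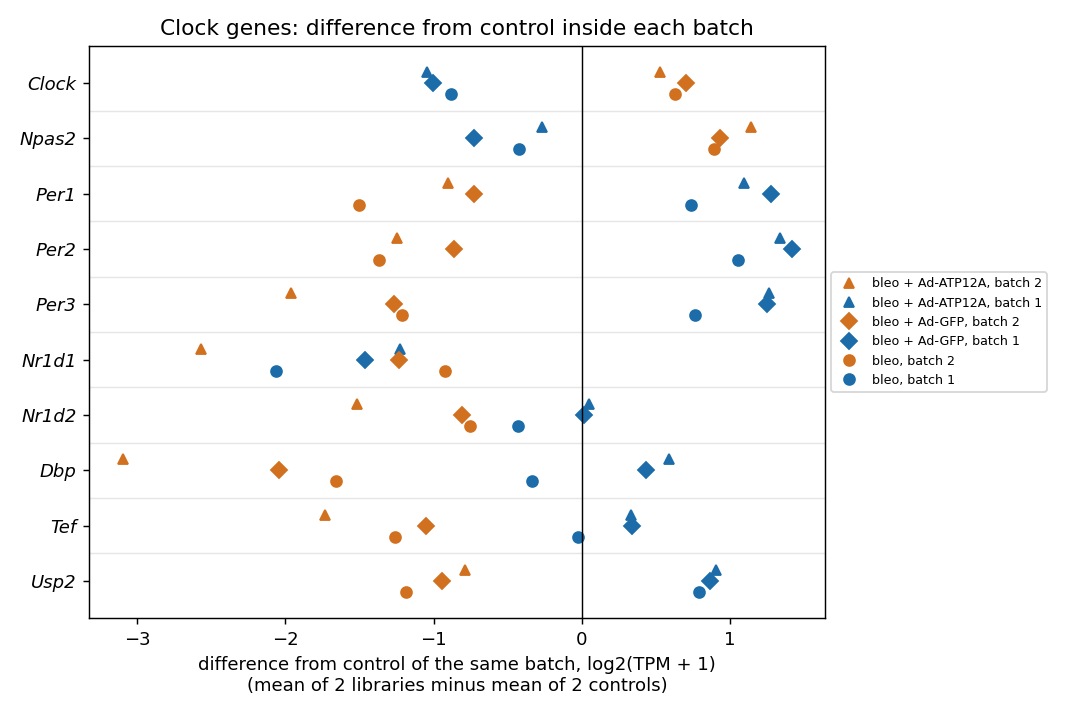
Difference from the controls of the same batch on the log2(TPM + 1) scale, as the mean of 2 libraries minus the mean of 2 controls, for Ad-ATP12A (triangles), Ad-GFP (diamonds) and bleomycin lungs (circles) in batch 2 (orange) and batch 1 (blue). For Clock, Per1, Per2, Per3 and Usp2 the orange and blue symbols stand on opposite sides of 0, and for Nr1d1 both stand below 0, from −2.57 to −0.92.

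The batches were also compared inside each group. Batch 2 minus batch 1, on the log2(TPM + 1) scale, Per2 was −0.57 in Ad-ATP12A, −0.26 in Ad-GFP and −0.40 in bleomycin lungs, and 2.02 in controls. For Per1 the same difference was 0.38, 0.37 and 0.13 in the exposed groups and 2.37 in controls. Usp2 had −0.22, −0.34 and −0.51 in the exposed groups and 1.47 in controls. Clock differed the other way in the controls, at −0.84, and by 0.73, 0.86 and 0.67 in the exposed groups, so that for Clock the exposed lungs also differed between batches. The exposed groups differed among themselves for Dbp, which was −1.41 in Ad-ATP12A, −0.20 in Ad-GFP and 0.95 in bleomycin lungs, and 2.28 in controls. The batch and whatever the lungs of a batch shared, such as the time of collection, cannot be told apart, and the labels used here give no such time. Nor can exposure and time of collection be told apart, if exposed and control lungs of a batch were collected at different times.

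Whether the difference from control itself differed between the batches was tested with limma, a linear model across all 17003 genes, as the batch 2 difference minus the batch 1 difference with Benjamini-Hochberg adjustment over all genes. The 3 tests set exposed groups against the same 4 control libraries and are not independent of one another. They have 2 libraries in each cell of the design.

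With Ad-ATP12A, 4 of the 10 genes passed, beside 2.8% of all genes; 1 was higher in batch 2, beside 1.01% of all genes, and 3 were lower, beside 1.79%. Clock had a batch difference of 1.57 (SE 0.21, adjusted p = 0.0198), Per2 of −2.59 (SE 0.40, adjusted p = 0.0287), Per3 of −3.22 (SE 0.50, adjusted p = 0.0287) and Usp2 of −1.69 (SE 0.29, adjusted p = 0.0295). Dbp, at −3.69 (adjusted p = 0.0563), and Tef, at −2.06 (adjusted p = 0.0541), had large differences that did not pass. Per1 was at −1.99 (adjusted p = 0.104), Nr1d2 at −1.57 (adjusted p = 0.0787), Npas2 at 1.41 (adjusted p = 0.105) and Nr1d1 at −1.34 (adjusted p = 0.316). The median over the 10 was −1.84, beside 0.00 over all genes. The count was 0 without Ad-ATP12A library 1 or 2 of batch 1, control library 1 of batch 1 or control library 2 of batch 2, and lay at 1 or 2 without Ad-ATP12A library 1 or 2 of batch 2, bleomycin library 1 or 2 of batch 1 or control library 2 of batch 1. It was 7 without Ad-GFP library 1 or 2 of batch 1, and each of the 4 genes kept its direction in every omission.

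With Ad-GFP, 4 of the 10 passed, beside 2.36% of all genes; 1 was higher, beside 1.61% of all genes, and 3 were lower, beside 0.747%. Clock had 1.70 (SE 0.21, adjusted p = 0.0166), Per2 had −2.28 (SE 0.40, adjusted p = 0.0312), Per3 had −2.52 (SE 0.50, adjusted p = 0.0376) and Usp2 had −1.81 (SE 0.29, adjusted p = 0.0312). Dbp was at −2.47 (adjusted p = 0.149) and Npas2 at 1.66 (adjusted p = 0.0868). Per1 was at −2.0002 (adjusted p = 0.124), Tef at −1.39 (adjusted p = 0.142), Nr1d2 at −0.82 (adjusted p = 0.3355) and Nr1d1 at 0.23 (adjusted p = 0.901). The median over the 10 was −1.60, beside 0.08 over all genes. No gene of the 10 passed without Ad-GFP library 1 of batch 1, Ad-GFP library 2 of batch 2, control library 1 of batch 1 or control library 2 of batch 2, and 1 passed without Ad-GFP library 1 of batch 2, bleomycin library 1 or 2 of batch 1 or control library 2 of batch 1. No gene of the 10 passed either when the fit held the Ad-GFP and control libraries alone (adjusted p = 0.167 for each of the 4). Per3 was the least firm of the 4. It failed in 12 of the 16 omissions, where Per2 and Usp2 failed in 8 each and Clock in 4. Per3 also failed in 3 of 9 alternatives of the processing, 1 of them with no filter on low values (adjusted p = 0.0689).

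With bleomycin alone, 2 of the 10 passed, beside 0.0647% of all genes; 1 was higher, beside 0.0471%, and 1 lower, beside 0.0176%. Clock had 1.51 (SE 0.21, adjusted p = 0.0432) and Usp2 had −1.98 (SE 0.29, adjusted p = 0.0444). Per2, at −2.42 (SE 0.40, adjusted p = 0.0508), lay just past the threshold. Per1 was at −2.24 (adjusted p = 0.125), Per3 at −1.98 (adjusted p = 0.0866), Dbp at −1.32 (adjusted p = 0.459) and Tef at −1.23 (adjusted p = 0.224). Npas2 was at 1.32 (adjusted p = 0.186), Nr1d1 at 1.14 (adjusted p = 0.476) and Nr1d2 at −0.33 (adjusted p = 0.749). The median over the 10 was −1.28, beside 0.09 over all genes, which moved to −0.03 with quantile normalization and −0.01 with median-ratio scaling. No gene of the 10 passed without any 1 of the 4 bleomycin libraries, of Ad-ATP12A libraries 1 and 2 of batch 1, of control libraries 1 and 2 of batch 1 or of control library 2 of batch 2, and 1 passed without Ad-ATP12A library 1 or 2 of batch 2. The highest adjusted p for Clock in those omissions was 0.218 and its difference stayed between 1.41 and 1.61. Neither gene passed without the 3 libraries low in Scgb1a1 (Clock 1.45, adjusted p = 0.0899) or with a term for Xist (Clock 1.68, adjusted p = 0.0637).

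Averaged over the batches, the same genes were compared between groups with limma, with batch as a term. In Ad-ATP12A lungs against control, 1 of the 10 genes passed, Nr1d1, which fell by 1.90 on the log2(TPM + 1) scale (SE 0.49, adjusted p = 0.0157), where 22.8% of all genes passed, 13.3% higher and 9.49% lower. In bleomycin lungs against control, Nr1d1 again was the 1 that passed and fell by 1.49 (SE 0.49, adjusted p = 0.0492), where 18.8% of all genes passed, 13.2% higher and 5.61% lower. In Ad-GFP lungs against control none of the 10 passed, where 13.7% of all genes did, 9.16% higher and 4.52% lower; Nr1d1 was at −1.35 (SE 0.49, adjusted p = 0.0845), and it was the 1 gene with an unadjusted p under 0.05. These shares of 1, 1 and 0 in 10 are at or below the background. The 3 comparisons share the 4 control libraries.

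The Nr1d1 difference in bleomycin lungs stands at the edge of the threshold. Its adjusted p was above 0.05 in 10 of the 16 omissions of 1 library, without Ad-ATP12A library 1 of batch 1 or 1 or 2 of batch 2, bleomycin library 1 or 2 of batch 1 or 2 of batch 2, or any 1 control; it reached 0.159 without bleomycin library 1 of batch 1, where the difference was −1.20. In Ad-ATP12A lungs it failed in 2 of the 16 omissions, with an adjusted p of 0.0557 without library 1 and 0.0562 without library 2 of Ad-ATP12A in batch 2, and at 0.0552 without the 3 libraries low in Scgb1a1. In Ad-GFP lungs it passed without Ad-GFP library 1 of batch 2 (−1.71, adjusted p = 0.0325). Thra, which shares bases with Nr1d1, also fell, by 0.92 in Ad-ATP12A, 0.71 in Ad-GFP and 0.70 in bleomycin lungs against control (adjusted p = 0.00138, 0.00981 and 0.007). For Nr1d1 too, exposure cannot be told apart from a time of collection that differed between exposed and control lungs. In whole lung, fewer cells of a type and less RNA per cell cannot be told apart. Summed markers of alveolar fibroblasts were at 329 to 974 TPM in Ad-ATP12A, 414 to 1406 in Ad-GFP and 506 to 1174 in bleomycin lungs. In control lungs they were at 1838 to 3843 TPM, of which Inmt alone made 1421 to 3202 TPM. Of the 5 markers 2, Inmt and Wnt2, were lower in each comparison with control, and Tcf21, Pdgfra and Npnt passed in none. In Ad-ATP12A lungs Pdgfra was at 90.8 and 95.8 TPM in batch 2, where controls were at 86.4 and 70.3. In batch 1 Pdgfra was at 19.4 and 35.5 TPM in Ad-ATP12A lungs, where controls were at 79.5 and 75.9. Summed macrophage markers were at 205 to 654 TPM in Ad-ATP12A, 166 to 557 in Ad-GFP and 255 to 436 in bleomycin lungs. In control lungs they were at 69.5 to 164 TPM, and 3 of 5 were higher with Ad-ATP12A and 2 of 5 with Ad-GFP and with bleomycin. Of the other marker lists, 5 of 6 capillary endothelium markers were lower with Ad-ATP12A, and 2 of 6 with Ad-GFP and with bleomycin, with sums of 540.2 to 1162 TPM in Ad-ATP12A, 702 to 1631 in Ad-GFP, 742 to 1389 in bleomycin and 1379 to 1977 in control lungs. Cardiac muscle had 3 of 4 lower with Ad-ATP12A, red blood cells 3 of 3 lower with bleomycin, B cells 3 of 4 lower with Ad-GFP and T cells 2 of 4 higher with Ad-ATP12A, and in each remaining list at most 2 markers passed in a comparison. Over all genes, 13.3% were higher and 9.49% lower with Ad-ATP12A, 9.16% and 4.52% with Ad-GFP, and 13.2% and 5.61% with bleomycin. None of the markers of the lists named here was at 0 in any library, and their part in the Nr1d1 result was not tested.

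For the other 9 genes the averaged differences from control ran from −1.25 (Dbp) to 0.44 (Npas2) with Ad-ATP12A, from −0.81 (Dbp) to 0.28 (Per1) with Ad-GFP, and from −0.997 (Dbp) to 0.23 (Npas2) with bleomycin. No one of them passed. Nr1d2 was at −0.73 (adjusted p = 0.0981) with Ad-ATP12A, where it had the second lowest p of the 10. The averages of Clock, −0.26, −0.15 and −0.13 with Ad-ATP12A, Ad-GFP and bleomycin, join batch differences of opposite sign.

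Between the vectors, the question was whether Ad-ATP12A changed the clock genes beyond Ad-GFP. None of the 10 passed in Ad-ATP12A against Ad-GFP lungs, where 0.00588% of all genes did, and none had an unadjusted p under 0.05. The averaged differences ran from −0.55 (Nr1d1) to 0.33 (Npas2). In batch 2 Nr1d1 was −1.33 and Dbp −1.05 with Ad-ATP12A relative to Ad-GFP, but in batch 1 they were 0.23 and 0.16, and the 2 Ad-GFP libraries of a batch differed by more than that. In Ad-GFP against bleomycin lungs none of the 10 passed, where 0.0118% of all genes did, and none had an unadjusted p under 0.05; Per1 had the largest difference, 0.66. The batch differences of these comparisons passed for 0 of the 10 and for 0% of all genes in both, with 0 of the 10 at an unadjusted p under 0.05. A p over the threshold does not show that the groups were alike: the SE of each averaged Nr1d1 difference was 0.49. The averages of Ad-ATP12A against Ad-GFP also join batches with unlike Atp12a levels. In Ad-ATP12A lungs Atp12a was at 29.0 and 25.7 TPM in batch 2 and at 5.13 and 2.96 TPM in batch 1.

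Batch 2 against batch 1, averaged over groups, gave 0 of the 10 genes, where 18.5% of all genes passed, 16.4% higher and 2.11% lower. Of the 10, 2 had an unadjusted p under 0.05 in limma, and the share of all genes at that p is not given here. Per1 was at 0.81 (SE 0.32, adjusted p = 0.0949) and Nr1d2 at 0.47 (SE 0.22, adjusted p = 0.138). The other 8 ran from −0.27 (Npas2) to 0.45 (Nr1d1), with Clock at 0.36, Per2 at 0.20, Per3 at 0.0403, Dbp at 0.41, Tef at 0.26 and Usp2 at 0.10. For Clock, Per2 and Usp2 the average joins differences of opposite sign in exposed and control lungs, given above. Per3 likewise was −1.25 in Ad-ATP12A, −0.55 in Ad-GFP and −0.008 in bleomycin lungs, and 1.97 in controls.

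Across the 16 libraries Dbp, Tef, Nr1d2 and Per3 varied together and Npas2 varied against them. Pearson correlations of log2(TPM + 1) over the 16 libraries, which share groups and batches and are given as a description, were 0.97 between Dbp and Tef, 0.93 between Dbp and Nr1d2, and 0.90 between Per2 and Per3. Npas2 was at −0.80 with Dbp and −0.87 with Tef. Usp2 went with Per2 (0.86) and less with Dbp (0.45) and Nr1d2 (0.33). Clock ran against Per2 (−0.71), Per3 (−0.68) and Usp2 (−0.71), but not against Nr1d1 (0.19). Nr1d1 went with Dbp (0.81) and Nr1d2 (0.85) and little with Usp2 (−0.05) or Per2 (0.17).

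Of the 17003 genes, those most like Dbp over the 16 libraries by Pearson correlation were Rasgrp2 (0.94), Taok2 (0.93), F2rl2 (0.93), Mapk12 (0.91) and Mepce (0.91). The most opposite were Cyp4f39 (−0.93), Nfil3 (−0.91), Tmem213 (−0.90), Ereg (−0.88) and Leo1 (−0.88). Nfil3 encodes a repressor that binds the same D-box as DBP and TEF, and its level ran opposite to that of Dbp: it stood at 16.4 and 16.4 TPM in the Ad-ATP12A lungs of batch 2, where Dbp was at 22.6 and 22.4, and at 2.43 and 1.98 TPM in the batch 2 controls, where Dbp was at 235 and 171. The genes most like Npas2 were Arntl (0.84), Tnfsf9 (0.81), Tmem213 (0.79), Leo1 (0.78) and Gpsm2 (0.74), and the most opposite were Gata1 (−0.85), Gng11 (−0.84), Itga2b (−0.84), Gp1ba (−0.83) and Nat8f3 (−0.83).

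**Figure D3:**
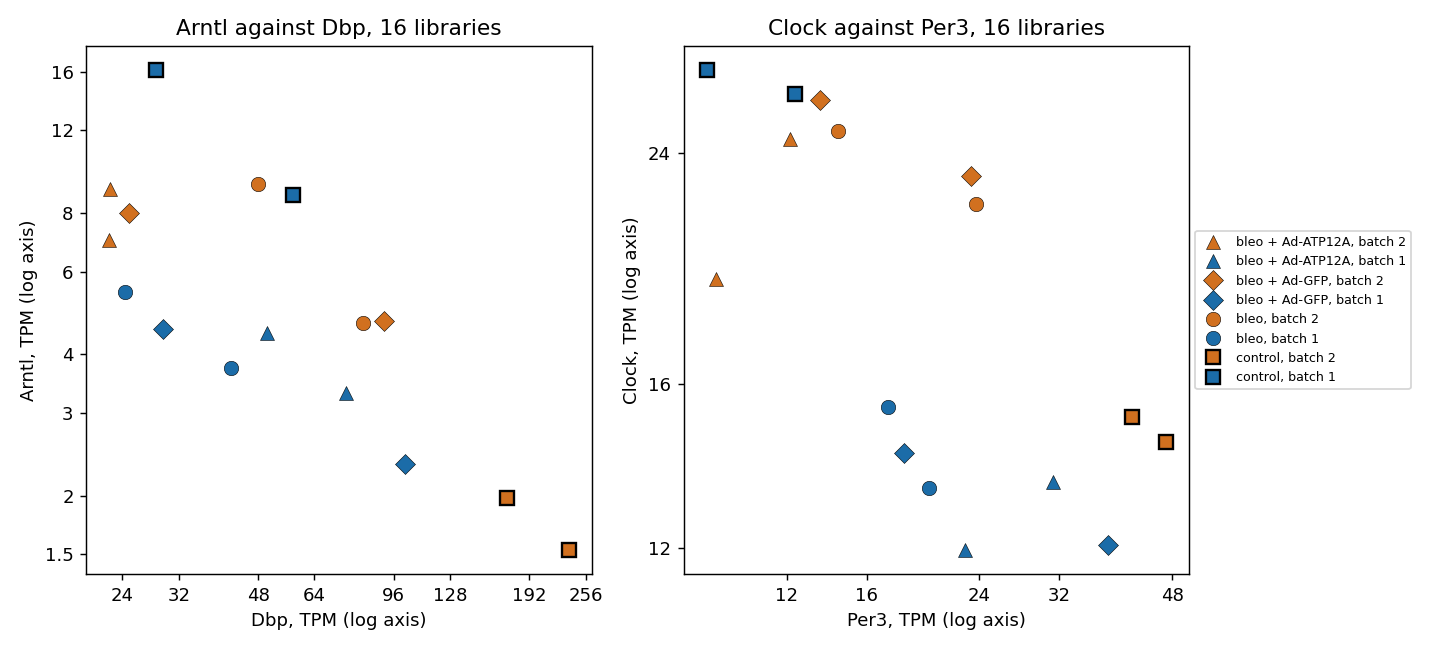
Arntl against Dbp and Clock against Per3, in TPM on log axes, for 16 libraries; triangles are Ad-ATP12A, diamonds Ad-GFP, circles bleomycin and squares control lungs, with batch 2 in orange and batch 1 in blue. The batch 2 controls lie at the end with the highest Dbp and Per3 and the lowest Arntl, at 1.53 and 1.98 TPM, and the batch 1 controls have the 2 highest Clock values, 27.8 and 26.7 TPM.

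Beyond the 10, a list of 18 other core clock genes was followed, of which 17 were tested. Arntl, the partner of Clock and Npas2, stood in batch 2 at 8.99 and 7.01 TPM in Ad-ATP12A lungs, 4.71 and 8.02 TPM in Ad-GFP lungs, 4.67 and 9.21 TPM in bleomycin lungs, and 1.53 and 1.98 TPM in control lungs. In batch 1 Arntl stood at 4.45 and 3.31 TPM in Ad-ATP12A lungs, 2.34 and 4.54 TPM in Ad-GFP lungs, 5.43 and 3.75 TPM in bleomycin lungs, and 16.2 and 8.75 TPM in control lungs. It was above both controls in all 6 exposed libraries of batch 2 and below both in all 6 of batch 1, as Clock was. Its batch difference was 3.12 with Ad-ATP12A (SE 0.53, adjusted p = 0.0297), 2.97 with Ad-GFP (SE 0.53, adjusted p = 0.0326) and 2.70 with bleomycin (SE 0.53, adjusted p = 0.0575). Csnk1e, a kinase of PER proteins, was also apart in opposite directions in the 2 batches. In all, 3 of the 17 were, beside 2.22% of all genes.

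Ciart, a repressor of the CLOCK and BMAL1 pair, had batch differences of −3.68 with Ad-ATP12A (adjusted p = 0.0287), −2.83 with Ad-GFP (adjusted p = 0.0403) and −2.09 with bleomycin (adjusted p = 0.107). In all, 3 of the 17 passed with Ad-ATP12A (1 higher, 2 lower), beside 2.8% of all genes. With Ad-GFP 3 passed (1 higher, 2 lower), beside 2.36%, and with bleomycin 0, beside 0.0647%. With bleomycin 6 had an unadjusted p under 0.05 in limma. The share of all genes at that unadjusted p is not given here, so that count is no result about the list.

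Other genes of that list differed from control in the average over batches. With Ad-ATP12A, 3 of the 17 rose and 4 fell, beside 13.3% and 9.49% of all genes; with Ad-GFP 2 rose and none fell, beside 9.16% and 4.52%; with bleomycin 2 rose and 4 fell, beside 13.2% and 5.61%. The counts that rose are near those shares. Bhlhe40, which encodes the E-box repressor DEC1, rose by 0.98 with Ad-ATP12A (adjusted p = 0.00487), 0.81 with Ad-GFP (adjusted p = 0.019) and 1.002 with bleomycin (adjusted p = 0.00507). Timeless, which in mammals acts mainly at the replication fork, rose by 0.40, 0.47 and 0.56 in the same comparisons (adjusted p = 0.0134, 0.0104 and 0.00302). With Ad-ATP12A and with bleomycin, the genes that fell included Hlf, the third PAR bZIP factor, by 1.36 and 1.29, Cry2, a cryptochrome repressor, by 0.74 and 0.78, and Rora, which activates Arntl, by 0.65 and 0.62. Nfil3 rose by 1.38 with Ad-ATP12A (adjusted p = 0.0257) and was at 0.998 with Ad-GFP (adjusted p = 0.111) and 0.97 with bleomycin (adjusted p = 0.104). These averages join unlike batches. In batch 1 exposed lungs overlapped controls for Hlf, at 3.75 to 12.44 against 7.14 to 12.95 TPM. Cry2, at 15.69 to 29.66 against 25.46 to 28.44 TPM, and Nfil3, at 5.69 to 10.83 against 4.80 to 6.05 TPM, overlapped there too. In batch 2 all exposed lungs were below both controls for Hlf and Cry2 and above both for Nfil3. Rora was below both controls in batch 1 and overlapped in batch 2. In batch 2 against batch 1, 4 of the 17 were higher, beside 16.4% of all genes, Rora by 0.57, Bhlhe41 by 0.70, Cipc by 0.29 and Csnk1d by 0.19.

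Of 12 further genes known as clock outputs, 11 were tested; 1 rose and 3 fell with Ad-ATP12A, 1 rose and 1 fell with Ad-GFP, and 1 rose and 3 fell with bleomycin. Over all genes the shares that rose and fell were 13.3% and 9.49% with Ad-ATP12A, 9.16% and 4.52% with Ad-GFP, and 13.2% and 5.61% with bleomycin, so that the single genes that rose are no result about the list. Cdkn1a, a cell cycle inhibitor that p53 also induces, rose by 2.26 with Ad-ATP12A, 2.12 with Ad-GFP and 2.14 with bleomycin (adjusted p = 0.000225, 0.000736 and 0.000353). Klf15, a regulator of amino acid and lipid use, fell by 1.18 with Ad-ATP12A and 1.29 with bleomycin, and Por, the electron donor of cytochrome P450 enzymes, by 0.87 and 0.96. For Klf15 and Por, exposed lungs overlapped controls in batch 1 and were all below both controls in batch 2. Of 6 detoxification genes known as targets of DBP, TEF and HLF in mouse liver and kidney, 5 were tested. With Ad-ATP12A 3 fell (Por, Cyp2b10 by 0.96 and Ces1d by 1.20), beside 9.49% of all genes. With Ad-GFP 0 passed, beside the 4.52% of all genes that fell. With bleomycin 2 fell (Por and Cyp2b10 by 0.86), beside 5.61%. Ces1d, like Por, overlapped controls in batch 1. With Ad-GFP 3 had an unadjusted p under 0.05 in limma, a count for which the share of all genes is not given here.

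Signals that can reset Per1 were followed as 12 glucocorticoid response genes and 9 immediate early genes, of which 12 and 8 were tested. Of the 12, 3 rose and 1 fell with Ad-ATP12A, 3 rose and 1 fell with Ad-GFP, and 2 rose and 1 fell with bleomycin. Of all genes, 13.3%, 9.16% and 13.2% rose and 9.49%, 4.52% and 5.61% fell in the same order, so that counts of 1 or 2 are near the background. The metallothionein gene Mt2, which metals and inflammation also induce, rose by 2.30 with Ad-ATP12A, 2.01 with Ad-GFP and 2.00 with bleomycin, Mt1 by 1.43, 1.26 and 1.32, and Nr3c1, the glucocorticoid receptor gene, fell by 0.76, 0.65 and 0.61. Fkbp5, which encodes a chaperone of that receptor, rose by 2.07 with Ad-ATP12A and 1.83 with Ad-GFP (adjusted p = 0.0187 and 0.0443), and was at 1.20 with bleomycin (adjusted p = 0.150). In batch 2 Fkbp5 stood at 138 and 124 TPM in Ad-ATP12A lungs, 41.7 and 138 TPM in Ad-GFP lungs, 19.8 and 24.5 TPM in bleomycin lungs, and 13.3 and 13.0 TPM in control lungs. In batch 1 it stood at 16.9 and 25.2 TPM in Ad-ATP12A lungs, 19.1 and 34.4 TPM in Ad-GFP lungs, 35.8 and 36.2 TPM in bleomycin lungs, and 7.19 and 15.2 TPM in control lungs. The vector libraries had the highest values in batch 2 and the bleomycin libraries in batch 1. Of the 8 immediate early genes, 1 rose and 1 fell with each vector and 2 rose and 1 fell with bleomycin, again near the shares of all genes; Jun fell by 0.61 with Ad-ATP12A, 0.53 with Ad-GFP and 0.48 with bleomycin. Batch differences with Ad-ATP12A passed for 1 of the 12 (higher) and 1 of the 8 (lower), beside 1.01% and 1.79% of all genes. With Ad-GFP and with bleomycin 0 passed in either list. Single genes are no result about a list. With Ad-ATP12A, 7 of the 8 immediate early genes were above control in batch 1 and 2 in batch 2. Of the 12 glucocorticoid response genes, 6 were above control in each batch. Per1 did not pass in any of these comparisons, and its values for them are given above.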

How the data were processed

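RNA of 16 whole mouse lung libraries was sequenced; per the labels' protocols it was extracted with a column kit and libraries were made from total RNA. The authors deposited 1 table of log2 values, log2(TPM + 1) per Ensembl gene and library; turned back, each column summed to 999999.12 to 1000000.82. Per the submitters' processing notes, STAR and RSEM were used with GRCm39; versions, annotation release, strand setting and read depth are not given in the sources used here, and TPM keeps no depth. Symbols came from GENCODE M21 (GRCm38): 52093 identifiers matched and 1554 did not.

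Groups and batches came from the sample titles. Genes with 1 TPM or more in at least 4 libraries (17003) were fitted on log2(TPM + 1) with limma 3.58.1 (R 4.3.3, trended prior). One fit had group and batch terms, another a mean for each group and batch, whose contrasts gave batch differences. P-values were adjusted by Benjamini-Hochberg over all genes tested, with a threshold of 0.05. Differences inside a batch have no test. The fits were tested on simulated data. Every value is on the pseudocount 1 scale, which understates differences of low genes. Promoters came from RefSeq (GRCm38.p6), and figures were drawn with matplotlib 3.10.9 in Python 3.11.15.

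The 10 genes and the other lists were chosen with earlier results of these data known. The rule for naming took all 10 in every comparison (where few passed, the rest are given as a range); from other lists, up to 6 genes with the smallest adjusted p and core clock genes; for likeness, the 5 highest and 5 lowest correlations. Alternatives changed the pseudocount, filter, scaling, batch term, block, samples and prior, and left out each library; the omission of 3 libraries low in Scgb1a1, the Xist term and the alternatives for separation were added after seeing the data. Results for some genes of the core clock list are not reported here.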

Additional observations from a re-analysis of the deposited data

Results flagged for a closer look

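Of 40 groups of 4 libraries looked at, 10 genes in 4 groups, 2 held a library far from the other 3. Chance gives about 1 in 20, so that 2 of 40 is no more than chance gives. That rate is for 4 values of 1 kind, while each group here joins 2 batches. Per2 was at 7.82 TPM in library 2 of batch 2 of the bleomycin lungs, where the other 3 were at 13.6 to 14.4 TPM. Nr1d2 was at 78.6 TPM in library 2 of batch 1 of the Ad-ATP12A lungs, where the other 3 were at 44.4 to 47.6 TPM.

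The difference from control differed between the batches in 10 tests, given as the batch 2 difference minus the batch 1 difference. With Ad-ATP12A these were 1.57 for Clock, −2.59 for Per2, −3.22 for Per3 and −1.69 for Usp2. With Ad-GFP they were 1.70 for Clock, −2.28 for Per2, −2.52 for Per3 and −1.81 for Usp2. With bleomycin alone they were 1.51 for Clock and −1.98 for Usp2. All 3 sets use the same 4 controls. They hold 4, 4 and 2 of the 10 genes, beside 2.8%, 2.36% and 0.0647% of all genes. Batch differences between exposed groups passed for 0 of the 10. Leaving out 1 library at a time, each of these results was lost in 4 to 12 of the 16 omissions.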

How the results depend on the processing

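Counts of the 10 genes depended on the processing as follows. In bleomycin against control the count of 1 became 0 with a pseudocount of 0.1, with no filter on low values, with no batch term, with a robust prior and without the 3 libraries low in Scgb1a1, and 2 (Nr1d1 and Nr1d2) with only the groups compared. In Ad-ATP12A against control it became 0 without those 3 libraries. With only the groups compared, batch differences passed for 7 genes with Ad-ATP12A and 0 with Ad-GFP; with bleomycin they passed for 0 without the 3 libraries and 0 with a term for Xist. Over all genes, batch 2 against batch 1 gave 3141 genes, and 0 without the 3 libraries. In bleomycin against control 3201 genes became 1468 without them; in Ad-GFP against control 2326 became 1375 without them and 963 with only the groups compared. The 11 genes of the bleomycin batch difference ran from 1 to 217, the 401 of Ad-GFP from 3 to 751, and the 476 of Ad-ATP12A from 118 to 2211 over these settings; leaving out 1 library, they ran from 1 to 529, 3 to 1113 and 0 to 1401.

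The replicate numbers showed no clear pairing of the libraries. Each library was taken, gene by gene, as its deviation from the mean of its group and batch. Over 12 pairs of groups of the same batch, the correlation of these deviations between same-numbered libraries ran from −0.16 to 0.21, and 1 was over 0.1. With a replicate block, 0 of the 10 genes passed in bleomycin against control (Nr1d1 −1.49, adjusted p = 0.0598), and the counts of the 10 in the other 4 comparisons of groups were as before; the block was not run for batch differences or for batch 2 against batch 1.

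Leaving out 1 library at a time, counts ran from 0 to 1 in bleomycin, 0 to 1 in Ad-GFP and 0 to 2 in Ad-ATP12A against control, and from 0 to 1 between batches; batch differences ran from 0 to 3 with bleomycin, 0 to 4 with Ad-GFP and 0 to 7 with Ad-ATP12A. Differences that did not pass crossed 0 in some omissions. Against control with bleomycin, Clock ran from −0.35 to 0.10, Per1 from −0.87 to 0.0519, Per2 from −0.58 to 0.18, Per3 from −0.65 to 0.16 and Usp2 from −0.47 to 0.11. With Ad-GFP, Clock ran from −0.38 to 0.0780, Npas2 from −0.13 to 0.46, Per1 from −0.22 to 0.60, Per2 from −0.15 to 0.61, Per3 from −0.44 to 0.37, Usp2 from −0.31 to 0.27, and the Nr1d1 batch difference from −0.65 to 1.10. With Ad-ATP12A, Per1 ran from −0.40 to 0.42, Per2 from −0.38 to 0.38, Per3 from −0.78 to 0.0316 and Usp2 from −0.21 to 0.37. Without the 3 libraries, bleomycin differences changed sign for Npas2 (−0.10), Per1 (0.32), Per2 (0.37), Per3 (0.19) and Usp2 (0.0565), and with a pseudocount of 0.1 Per3 with Ad-GFP did (0.00204). None of these passed in either setting.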
